A study of Mus musculus with 2 samples.

Results

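Long intergenic noncoding RNAs (lincRNAs) of mouse calf muscle are described here: 121 genes of the 34745 in the deposited count table. They are the genes that the GENCODE M21 annotation types as lincRNA and that had at least 20 raw reads in each of 2 libraries, without the imprinted RNAs H19, Meg3, Rian, Mirg and Peg13. The members were thus selected on their read counts in both libraries, so their levels and ratios are given as a description, with no test.

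A lincRNA is transcribed by RNA polymerase II from its own locus between protein-coding genes, and is usually capped, spliced and polyadenylated. Some act as scaffolds of nuclear bodies, some bind microRNAs or RNA-binding proteins in the cytoplasm, and others carry microRNAs or small nucleolar RNAs in their introns and are mainly their precursors. For many the transcript has no known role, and some loci first typed as noncoding were later found to encode small proteins, several of them in muscle.

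The tissue was gastrocnemius, a large calf muscle, of 8-week-old C57BL/6 mice. There was 1 library of genotype Cry2flox/flox (Cry2flox), in which recombination sites surround part of the gene, and 1 library labelled Cry2scko. Cry2 encodes cryptochrome 2, a repressor of the circadian clock. What scko stands for is not in the labels, which name no Cre driver and give neither the hour of collection nor whether animals were pooled. With 1 library per genotype there were no replicates, and every difference below is between these libraries, not between genotypes.

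The library totals were 18909433 reads for Cry2flox and 16423884 for Cry2scko, and paired values below give Cry2flox first. The targeted gene Cry2 had 676 reads in the floxed library against 133 in the other, and its log2 ratio of Cry2scko over Cry2flox was -2.16 with a 95% counting interval of -2.44 to -1.89. All ratios below have the same direction, and their intervals are exact binomial intervals that cover counting error only, since reads amplified by PCR are not independent molecules. The 6 muscle fibre markers were abundant in both libraries, at a summed 122106 and 115887 CPM (read counts scaled to library size). Markers of other cells differed: the 6 B lymphocyte markers summed to 41.9 CPM in Cry2flox and 113 in Cry2scko, all 6 at least 2-fold higher, the 5 T lymphocyte markers to 9.96 and 19.3 CPM, the 5 slow fibre markers to 809 and 1772 CPM, the 5 tendon markers to 91.9 and 39.1 CPM, and the 4 adipocyte markers to 12.5 and 7.44 CPM. The tendon sums rest mostly on Fmod (70.0 and 29.9 CPM). Tnmd and Comp were also at least 2-fold lower, while Scx had a log2 ratio of -0.17. Of the adipocyte markers only Adipoq was at least 2-fold lower, and Lep, with 8 and 12 reads, went the other way. Endothelium markers summed to 336 and 314 CPM and Schwann cell markers to 111 and 113 CPM, and none of these or of the 4 macrophage markers differed by 2-fold. No marker in these lists was at 0 in both libraries. Their part in the lincRNA values was not tested, and in bulk tissue fewer cells of a type and less RNA per cell cannot be told apart.

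Most lincRNA genes had no reads in this muscle. Of 3397 in the table, 2757 had 0 reads in both libraries, 485 had reads but fewer than 20 in each library, 31 reached 20 in exactly 1 library, and 124 reached it in both. H19, Meg3 and Mirg were the 3 removed from these 124, because the annotation types Rian as processed transcript and Peg13 as sense intronic. The members just inside the minimum were Gm32391 with 24 and 20 reads in Cry2flox and Cry2scko, Gm44117 with 26 and 20, Gm44837 with 28 and 20, and 5033430I15Rik with 30 and 20. Just outside lay A930024N18Rik with 20 and 19 reads, Gm12688 with 23 and 19, 4833403J16Rik with 19 and 26, and Gm4861 with 33 and 19. A minimum in both libraries removes genes that are low in only 1: Mirt1, with 13 and 42 reads, and 9330175E14Rik, with 9 and 31, are outside for that reason. The excluded imprinted RNAs had 13728 and 8880 reads (H19), 1918 and 1201 (Meg3), 1143 and 658 (Rian), 83 and 44 (Mirg), and 422 and 419 (Peg13), log2 ratios of -0.45, -0.49, -0.61, -0.72 and 0.17, and none passed the 2-fold rule used below.

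A few genes held most of the lincRNA reads. The 121 members took 58790 reads (0.311% of the library) in Cry2flox and 51988 (0.317%) in Cry2scko. The 3 most abundant took 66.4% of the member reads in Cry2flox and 64.8% in Cry2scko, the first 5 took 75.4% and 74.9%, and the first 10 took 81.5% and 80.8%. The median member had 74 reads in Cry2flox and 65 in Cry2scko. Levels between genes are compared as the deposited FPKM, which is scaled by the gene length of the authors' models. For 24 of the 121 members the length that the FPKM implies is more than 1.5 times away from the GENCODE M21 exon length, so levels rescaled to the M21 length are given where this matters. The median mean level was 1.63 FPKM for the members and 2.62 FPKM for the 12254 genes of any type with 20 or more reads in each library.

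The lincRNA with the most reads was 1700020I14Rik, which RefSeq names Oip5os1 and which is also known as Cyrano (chr2:119594297-119607502, plus strand, GRCm38). Cyrano is a conserved RNA known for an extended site that pairs with miR-7 and leads to the decay of that microRNA. The site was found in the 8300-base GENCODE transcript at positions 2952 to 2958 for the seed match, and it is shown with miR-7a-5p because the site is the part of this RNA with a known partner. Capitals mark the seed (bases 2 to 8) of the microRNA (RefSeq, GRCm38.p6) and its match in the transcript, where a run of 13 bases upstream also pairs with the 3′ part of the microRNA. The same transcript holds another seed match at positions 762 to 768 with a 3′ run of only 3 bases.
miR-7a-5p: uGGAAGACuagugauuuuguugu
Oip5os1 extended site: taagaacaacaaaatcaccaatGTCTTCCa
Oip5os1 other seed match: gacttcaggttttttttttaatGTCTTCCa
The seed match GTCTTCC alone is common: the longest transcripts of 30 of the 121 members (24.8%) hold it on the sense strand. So do the first 8300 bases of 49.5% of the 937 genes with a transcript that long. The members' transcripts are of any length, so these shares are not at a like length. Oip5os1 had 17663 and 14445 reads, 96.5 and 90.8 FPKM. Its log2 ratio was -0.11 (-0.14 to -0.08), a small difference whose interval is narrow because the gene has so many reads.

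Neat1 and Malat1, neighbours on chromosome 19, came next by reads. Neat1 (chr19:5824708-5845478, minus strand), the scaffold of paraspeckles, had 14145 and 12605 reads, 30.2 and 30.9 FPKM, and a log2 ratio of 0.02 (-0.02 to 0.05). Malat1 (chr19:5795690-5802672, minus strand), a nuclear speckle RNA, had 7224 and 6658 reads, 40.9 and 43.4 FPKM, and a log2 ratio of 0.07 (0.02 to 0.11). Both were at nearly the same level in the libraries. Among the 13 listed paraspeckle proteins, all past the read minimum, none passed the 2-fold rule and the median log2 ratio was 0.01. The core proteins Nono and Sfpq had -0.06 and -0.07, and Pspc1 had 177 and 117 reads and -0.41. Of the nuclear RNA exosome and its adaptors, which degrade many noncoding transcripts, all 17 in the table passed the minimum, none passed the 2-fold rule, and the median was -0.03. Of 7 lncRNAs listed for nuclear bodies, 6 were found by symbol. None of these passed the rule and their median was 0.04. Beside Neat1 and Malat1 they were Miat, Tug1, Firre and Kcnq1ot1. Miat (47 and 34 reads, -0.28) is also a member. The annotation gives other types to Tug1 (852 and 406 reads, -0.89), Firre (0.16) and Kcnq1ot1 (0.13). Norad was also listed, but its locus is annotated as 2900097C17Rik (-0.28, described below), so it is not in this median.

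2310065F04Rik, named linc-Myh in RefSeq (chr11:67112461-67120080, minus strand), is the lincRNA of the fast myosin heavy chain cluster and is known for its link to the fast fibre programme. It had 2393 and 2543 reads, 37.4 and 45.8 FPKM, and a log2 ratio of 0.27 (0.19 to 0.35). Of the 8 members with 1000 or more reads over both libraries it had the highest ratio, in a range of -0.17 to 0.27. The myosin genes beside it did not share one direction. Myh3, the embryonic myosin and the nearest coding gene at 10170 bases, had 47 and 129 reads (log2 ratio 1.63, past the 2-fold rule), and Myh2, the fast oxidative myosin, had 48632 and 52028 reads (0.28). Myh1 had -0.22, Myh4, the most abundant, had -0.14, Myh13 had -0.08, and Myh8, the perinatal myosin, had 85 and 34 reads (-1.13, past the rule). The slow fibre markers, which lie elsewhere, were higher in Cry2scko for 5 of 5, 4 of them past the 2-fold rule, with a median log2 ratio of 1.25, and their part in the value of linc-Myh was not tested.

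2900097C17Rik lies at the position of Norad in RefSeq (chr2:156388065-156392979, minus strand). Norad is a cytoplasmic RNA known for its many copies of the site bound by Pumilio proteins, which repress and destabilise messenger RNAs. Its single exon of 4915 bases held 11 copies of TGTANATA (N, any base, sense strand), the most of any member. The copy Gm7292 held 9, Neat1 held 4, and 36 of the 121 members (29.8%) held at least 1. Among 4380 genes with a transcript that long, the first 4915 bases held at least 1 copy in 34.9%. At least 11 copies were found in 2 genes (0.0457%), and 2900097C17Rik is itself 1 of them. Later bases of longer transcripts were not searched. The members' transcripts were searched whole at any length, so the 29.8% and 34.9% are not at a like length. The 4 stretches shown carry the motif in capitals, at positions 1523 to 1530, 1829 to 1836, 2451 to 2458 and 2754 to 2761 of the transcript, and were picked to show the letters around it.
2900097C17Rik 1523: actgactgctgTGTATATAgtggacaacag
2900097C17Rik 1829: tgtgtgtatacTGTATATAatggacaaata
2900097C17Rik 2451: gctgtatatatTGTACATActggacaaacg
2900097C17Rik 2754: cagtactactaTGTATATAggggacaaatt
Norad had 558 and 404 reads and a log2 ratio of -0.28 (-0.47 to -0.10). Its deposited level was 19.8 and 16.5 FPKM, which implies a length of 1488 bases. At the exon length of 4915 bases the level would be 6.004 and 5.005 FPKM. Gm7292 matched it at 99.1% of bases over its whole length and had 421 and 360 reads, log2 ratio -0.04 (-0.25 to 0.16). How reads were divided between these copies is not given in the sources used here, so both values are uncertain.

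By level per length the order was different. Gm12319, a transcript of 357 exon bases (chr11:70654741-70656493, minus strand) that starts opposite the muscle enolase gene Eno3, ranked the highest at 141 FPKM in Cry2flox and 127 in Cry2scko, from 953 and 747 reads. Its log2 ratio was -0.17 (-0.31 to -0.03), and that of Eno3 was also -0.17. Oip5os1 ranked next, then Prr33, 2310040G24Rik (1145 and 1037 reads, 46.5 and 48.5 FPKM, log2 ratio 0.04), Malat1, linc-Myh and Neat1. With M21 exon lengths the first 7 were the same genes, except that 2310040G24Rik (78.1 and 81.5 FPKM) stood before Prr33 (65.9 and 70.3 FPKM). Of the 12 members with the most reads, 8 were also among the 12 highest by FPKM. At the other end, Miat had 0.137 and 0.114 FPKM and Pvt1, the RNA beside Myc, 0.171 and 0.149 FPKM. With M21 exon lengths these were 0.267 and 0.223 FPKM, and 0.280 and 0.244 FPKM, and their means over both libraries were still the lowest of all members.

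**Figure D1:**
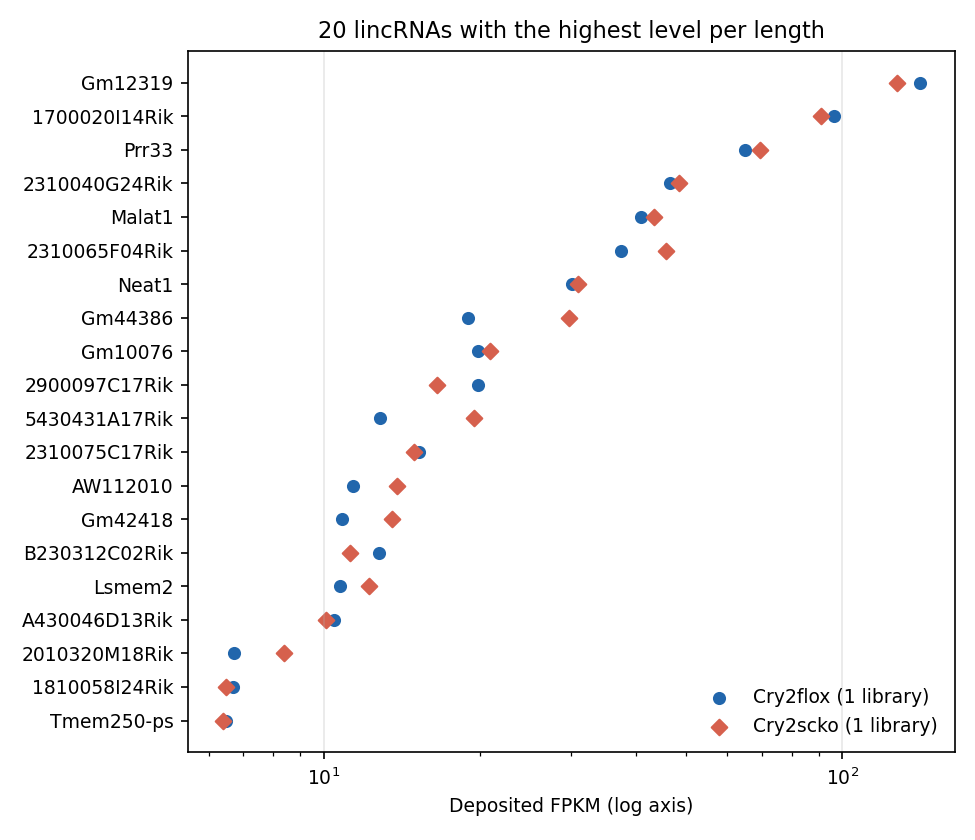
Deposited FPKM on a log axis for the 20 lincRNAs with the highest mean level, 1 point for the Cry2flox library (circle) and 1 for the Cry2scko library (diamond). Gm12319 leads at 141 and 127 FPKM, and the widest pairs are Gm44386 at 18.98 and 29.66 FPKM and 5430431A17Rik at 12.8 and 19.5 FPKM.

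The span of Prr33 (2928 and 2712 reads, 65.1 and 69.4 FPKM, log2 ratio 0.07) overlaps that of the muscle gene Tnnt3 on the other strand. Tnnt3 had 331866 and 298211 reads (0.03), and whether any of its reads entered the count of Prr33 was not tested. Prr33 has an open reading frame of 260 codons, and RefSeq types it as lncRNA. Some other abundant members have another type in RefSeq. 1810058I24Rik (549 and 461 reads, -0.07), the locus of a small mitochondrial protein, and Gm37494 (397 and 379 reads, 0.12), with an open reading frame of 918 codons, are protein-coding there. Gm42418 (375 and 408 reads, log2 ratio 0.30, interval 0.10 to 0.51) is a ribosomal RNA pseudogene there, and 99.5% of its exon bases lie opposite exons of other annotated genes on the other strand. Unless the counting used strand, which the sources used here do not give, reads of these genes cannot be told apart. RefSeq held an entry for 92 of the 121 members: 83 lncRNA, 6 protein-coding, 2 pseudogene and 1 transcribed pseudogene. An open reading frame of at least 100 codons was present in 34 members, and the median longest frame had 83 codons. Of 6 listed muscle genes that encode small proteins, some of which were first annotated as noncoding, none is a member, 3 passed the read minimum and 0 passed the 2-fold rule used below. Mrln, which encodes the calcium pump regulator myoregulin, had 200 and 278 reads (0.66).

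Across the members the ratios centred near 1. Their log2 ratios had a median of -0.03, quartiles of -0.21 and 0.27, and a range of -0.90 to 1.14. Over all 12254 genes past the same minimum the median was -0.00, with quartiles of -0.16 and 0.18, and over the 11705 protein-coding genes among them it was -0.00. A gene was called if it differed by 2-fold or more and its counting interval excluded a ratio of 1. By this rule 3 of 121 lincRNAs (2.48%) were higher in Cry2scko and 0 were lower, beside 3.44% of all genes in either direction (2.48% higher and 0.955% lower). The counting interval alone excluded 1 in 33 members (27.3%), 20 higher (16.5%) and 13 lower (10.7%), beside 33.2% of all genes (15.8% higher and 17.4% lower). These shares are near the background or below it. The share by interval alone depends on depth and was not matched for it. The median member had 74 and 65 reads, and the median of all 12254 genes was 268 and 239.

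The ratios spread more widely at low counts. In the 42 members with fewer than 100 reads over both libraries the median size of the log2 ratio was 0.29, in the 71 with at least 100 but under 1000 reads it was 0.25, and in the 8 with 1000 or more it was 0.07. Protein-coding genes in the same bands had 0.34, 0.19 and 0.11. Within 1.5-fold lay 83.5% of the members and 89.7% of all genes. Restricted to genes with fewer than 1000 reads, the shares were 82.3% of 113 members and 86.9% of 8550 genes, and the 2-fold rule called 2.65% and 4.23%. Across the members log2 CPM in one library followed that in the other with Pearson r = 0.974 (n = 121 genes), and across all genes with r = 0.980 (n = 12254). These are correlations across genes of the same 2 libraries, and genes are not replicates.

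**Figure D2:**
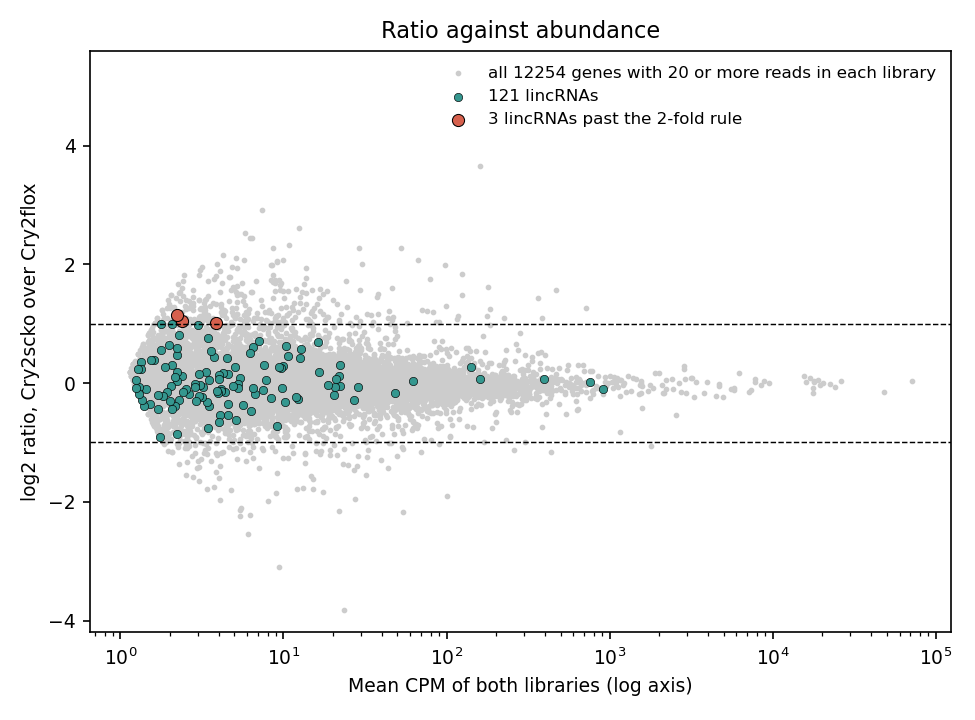
The log2 ratio of Cry2scko over Cry2flox against the mean CPM of both libraries (log axis) for all 12254 genes past the read minimum (grey), the 121 lincRNAs (green) and the 3 called lincRNAs (red), with dashed lines at 2-fold. The lincRNAs narrow towards 0 as abundance grows, and the 3 called members lie among those with few reads.

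The 3 called members were all transcripts of low abundance, with at most 86 reads in a library. AI504432 (chr3:107039504-107054347, plus strand) had 26 and 51 reads, 0.247 and 0.558 FPKM, and a log2 ratio of 1.14 (0.45 to 1.90). It starts 1434 bases after Kcna3, a potassium channel best known from lymphocytes, which had only 1 and 4 reads. 5930412G12Rik, which RefSeq names Fzd10os (chr5:128579106-128600693, minus strand), had 29 and 53 reads, 0.308 and 0.647 FPKM, and a log2 ratio of 1.04 (0.37 to 1.76). It starts 151 bases from Fzd10, a Wnt receptor gene on the other strand that had 42 and 38 reads (log2 ratio 0.04). 2610035D17Rik (chr11:113043895-113201838, minus strand) had 48 and 86 reads, 0.556 and 1.15 FPKM (1.20 and 2.47 FPKM at the M21 exon length), and a log2 ratio of 1.02 (0.50 to 1.57). The nearest coding gene, the zinc transporter gene Slc39a11, lies 43015 bases away and had 46 and 39 reads (-0.05). None of the 3 shares exon bases with another annotated gene. All 3 lie close to the threshold: with 5 reads added to each count in place of 0.5 only AI504432 passed, and with the deposited FPKM and 0.1 FPKM added none did, at log2 ratios of 0.92 (AI504432), 0.87 (5930412G12Rik) and 0.93 (2610035D17Rik). B lymphocyte, slow fibre and T lymphocyte markers were also higher in Cry2scko (median log2 ratios 1.53, 1.25 and 1.15), and their part in these 3 values was not tested. The first 120 bases of a GENCODE M21 transcript of each are shown as the start of the RNAs that passed the rule.
AI504432: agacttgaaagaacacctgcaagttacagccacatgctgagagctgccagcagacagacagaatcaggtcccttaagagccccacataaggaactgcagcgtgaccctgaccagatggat
5930412G12Rik: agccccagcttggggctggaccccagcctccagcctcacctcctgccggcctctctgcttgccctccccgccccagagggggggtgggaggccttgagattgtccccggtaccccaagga
2610035D17Rik: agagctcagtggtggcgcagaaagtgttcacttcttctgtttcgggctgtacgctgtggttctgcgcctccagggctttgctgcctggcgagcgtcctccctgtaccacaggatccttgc

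Another 9 members reached 1.5-fold in the same direction with an interval that excluded 1, so that 12 (9.92%) did with the called ones, beside 5.69% of all genes. 5730419F03Rik (22 and 39 reads), 5430416N02Rik (26 and 46 reads) and 4632428C04Rik (38 and 66 reads, log2 ratio 0.97) stood just under 2-fold. AI480526 had the most reads of this group, 232 and 331 (0.69, interval 0.45 to 0.94), but 66.6% of its exon bases are shared with genes on the other strand. The small nucleolar RNA host Snhg6 had 96 and 129 reads (0.61), 1300002E11Rik had 101 and 146 (0.71), and Gm44386 had 154 and 209 (0.62).

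Lower in Cry2scko by at least 1.5-fold were 6 members (4.96%), beside 3.83% of all genes. Gm43848 had 43 and 20 reads (log2 ratio -0.90, interval -1.76 to -0.12) and starts 120 bases after the end of Rap1a, which had 0.09. Gm45495 had 54 and 26 reads (-0.86) and starts 3270 bases after Smim20 (0.14). BC002059 had 81 and 42 reads (-0.76), and Gm10605 had 213 and 113 (-0.73), with 32.7% of its exon bases shared with Tpbgl on the other strand. Gm27000, a single-exon gene on the X chromosome with 93 and 52 reads (-0.65), is a near-identical copy of Meg3, the imprinted RNA left out above, whose own log2 ratio was -0.49. Over 842 aligned bases the copies had 1 mismatch, which is shown in capitals in the 61 bases around it, so outside that base the reads of these copies cannot be told apart.
Gm27000: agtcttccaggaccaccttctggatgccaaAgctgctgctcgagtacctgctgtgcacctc
Meg3: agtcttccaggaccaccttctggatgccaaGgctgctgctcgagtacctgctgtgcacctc
The sixth was 6720427I07Rik, a microRNA host described next.

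**Figure D3:**
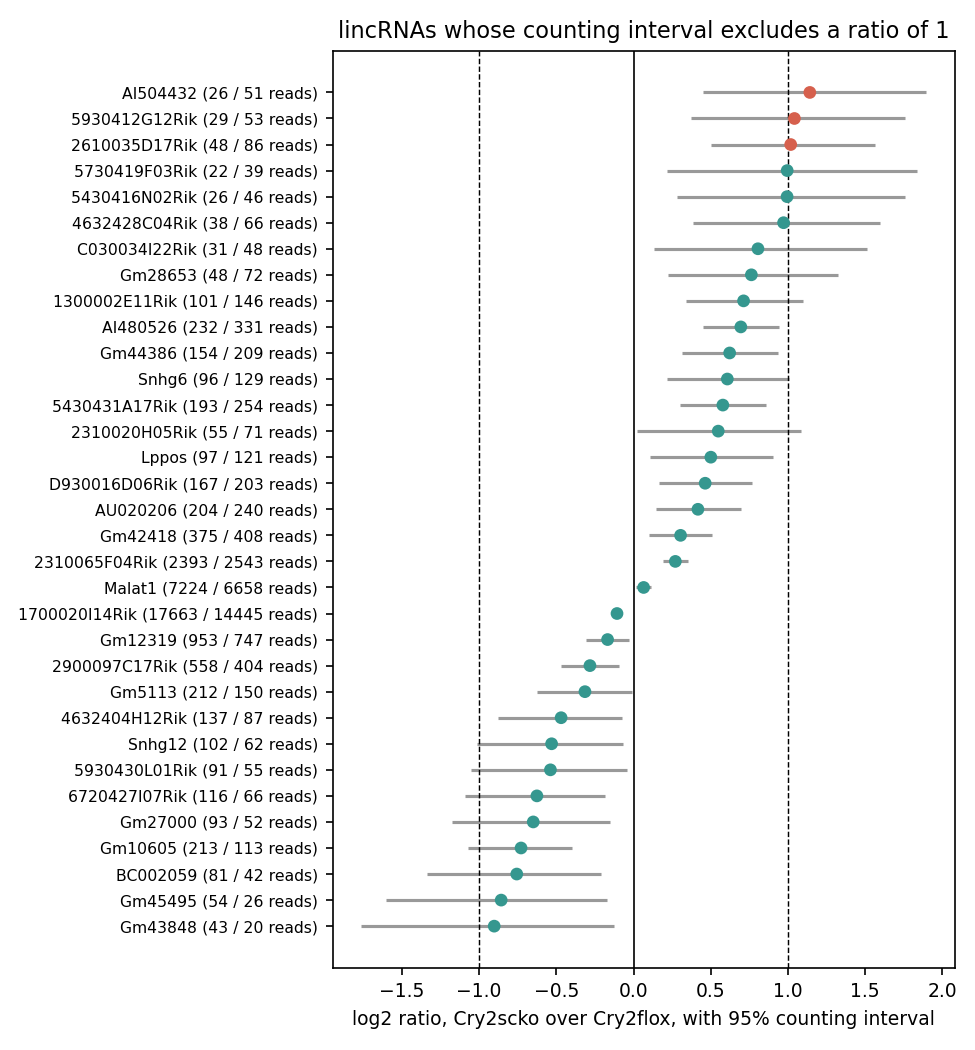
The log2 ratio of Cry2scko over Cry2flox with its 95% counting interval for the 33 lincRNAs whose interval excludes a ratio of 1 (solid line), with the reads in Cry2flox and Cry2scko beside each name and dashed lines at 2-fold. The 3 called members (red) have wide intervals, such as 0.45 to 1.90 for AI504432, and the abundant Oip5os1 (1700020I14Rik) sits at -0.11 with an interval narrower than its point.

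MicroRNA hosts among the members went both ways. Their mature microRNAs (RefSeq, GRCm38.p6) are shown with the seed in capitals, because the seed decides which messenger RNAs a microRNA pairs with. 6720427I07Rik (chr13:48532905-48546500, minus strand) spans the genes of let-7a-1, let-7f-1 and let-7d, members of a family that shares 1 seed and is known for promoting differentiation. Gm28653 (chr1:20669882-20684298, plus strand), the locus of the muscle RNA linc-MD1, spans the genes of the muscle microRNAs miR-206 and miR-133b. Mir17hg (chr14:115042879-115046727, plus strand) carries a cluster known for promoting proliferation, in which miR-17 and miR-20a share a seed and miR-19a and miR-19b share another.
let-7a-5p: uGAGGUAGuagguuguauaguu
let-7f-5p: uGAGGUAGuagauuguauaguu
let-7d-5p: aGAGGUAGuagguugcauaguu
miR-206-3p: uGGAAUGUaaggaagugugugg
miR-133b-3p: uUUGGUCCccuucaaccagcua
miR-17-5p: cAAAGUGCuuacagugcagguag
miR-20a-5p: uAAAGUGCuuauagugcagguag
miR-19a-3p: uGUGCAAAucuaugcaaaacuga
miR-19b-3p: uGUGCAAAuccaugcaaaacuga
The let-7 host 6720427I07Rik had 116 and 66 reads and a log2 ratio of -0.63 (-1.09 to -0.18). The linc-MD1 locus Gm28653 had 48 and 72 reads, 0.76 (0.22 to 1.33), the opposite direction. Mir17hg had 64 and 48 reads, -0.23 (-0.80 to 0.33), an interval that includes 1. E130102H24Rik, which spans miR-101a, had 79 and 62 reads (-0.16, interval -0.67 to 0.33). Ftx (0.44), Snhg20 (0.26) and 2900076A07Rik (42 and 30 reads, -0.30) also span microRNA genes, and Gm26532 (0.14) lies within 2 kb of miR-23a, miR-27a and miR-24-2. None of these members passed the 2-fold rule. These are reads of host transcripts, and mature microRNAs were not measured. Of the 12 genes in the table from a list of microRNA hosts, which also include other gene types, 5 passed the read minimum. Only Mir99ahg (31 and 65 reads, 1.24) among them passed the rule, and their median log2 ratio was -0.31. Whether each gene of this list, such as Mirt1 and Mirt2, spans a microRNA was not checked. Mir22hg had -0.31, Mir133a-1hg, host of a muscle microRNA, had 60 and 32 reads (-0.71), and Dnm3os had 125 and 74 (-0.57).

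Small nucleolar RNA hosts carry in their introns the guide RNAs that direct modification of ribosomal RNA. Of the 17 listed hosts that were counted, 13 passed the minimum. Of these, 10 had a ratio above 1, none passed the 2-fold rule, and the median log2 ratio was 0.30, beside 49.4% of all genes with a ratio above 1. Most of these hosts are typed as processed transcript. Of the 83 genes of that type past the minimum, 65.1% had a ratio above 1, with a median log2 ratio of 0.12. Among the 5 that are members, Snhg6 and Snhg20 (86 and 91 reads, 0.26) were above 1, while Snhg18 (87 and 69 reads, -0.15), Epb41l4aos (62 and 52 reads, -0.07) and Snhg12 (102 and 62 reads, -0.53, interval -1.02 to -0.07) were below. The hosts typed otherwise included Gas5, with 638 and 702 reads and a log2 ratio of 0.32.

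The other members with a given name gave small or imprecise ratios. Ftx, an RNA of the X inactivation centre, had 60 and 72 reads (log2 ratio 0.44, interval -0.07 to 0.97). Lppos, opposite Lpp, had 97 and 121 reads (0.50), while Lpp itself had -0.06. Hotair, from the HoxC cluster, had 25 and 29 reads (0.39), and Ino80dos had 26 and 30 (0.39). Tmem250-ps (355 and 305 reads) had -0.04, Fam120aos (125 and 104) had -0.08, and Gdap10 (80 and 66) had -0.09. Dubr, known from myoblast differentiation, had 81 and 79 reads (0.15), and Lsmem2 had 75 and 74 (0.16). RefSeq types Tmem250-ps and Lsmem2 as protein-coding. Pvt1 had 37 and 28 reads and -0.21. Of these, only the interval of Lppos excluded 1.

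The ratios of lincRNAs and of the coding genes beside them showed little correlation. The median distance to the nearest coding gene was 3479 bases, and 67 members lay within 5 kb of one. For 91 members that gene passed the read minimum, and 51 of these had a log2 ratio of the same sign. Across the 91 pairs Pearson r was 0.04 and Spearman rho 0.11, beside a Pearson r of 0.06 for 8005 coding genes and their nearest coding gene, all from the same 2 libraries. Only 2 of these neighbours passed the 2-fold rule, Myh3 beside linc-Myh and Klhl6, a B lymphocyte gene with 60 and 119 reads (1.17), beside A930003A15Rik with 58 and 50 reads (-0.03). A divergent coding gene, on the other strand with its start within 1 kb, was present for 25 members. Of those pairs 12 had the same sign, with Pearson r = -0.03. A430046D13Rik had 396 and 332 reads and -0.07 beside Myl6b, a myosin light chain gene, at 0.87, and AI480526 had 0.69 beside Setd1b at 0.04. Another 17 members start within 5 kb after the end of a coding gene on the same strand. In the 16 of these pairs past the minimum, 6 had the same sign and Pearson r was -0.26.

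**Figure D4:**
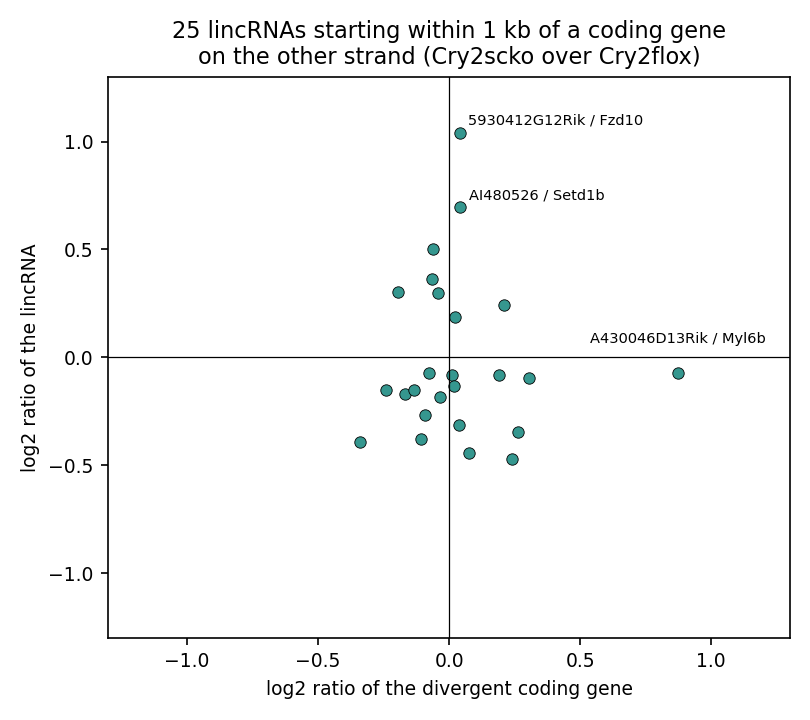
The log2 ratio of Cry2scko over Cry2flox for 25 lincRNAs (vertical axis) against that of the coding gene that starts within 1 kb on the other strand (horizontal axis), 1 point per pair. The points show no diagonal: 5930412G12Rik is at 1.04 with Fzd10 at 0.04, and A430046D13Rik is at -0.07 with Myl6b at 0.87.

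Since Cry2 is a repressor of the clock activators that bind E-boxes, the promoters of the members were searched for the clock E-box CACGTG. RefSeq promoters (GRCm38.p6), from 250 bases before to 50 after the start, were found for 71 of the 121 members (58.7%) and searched on both strands. With so few members matched, the shares below say nothing about the members as a set, and that check is void. The clock E-box was present in 6 (8.45%), beside 7.24% of all 27025 promoters. The D-box, TTATGTAA or TTACGTAA, was present in 1 (1.41%, beside 1.06%), that of 5430431A17Rik, and the muscle E-box CAGCTG in 9 (12.7%, beside 16.1%). For some members the RefSeq start lies far from the GENCODE start of the counted gene. The distance was 10979 bases for 5430431A17Rik, and 17110 and 1511 bases for 2310015K22Rik and Mir17hg, which hold the muscle E-box. For the members with a clock E-box it was at most 160 bases. The 6 members with a clock E-box were 5930430L01Rik (91 and 55 reads, -0.54), 4632404H12Rik (137 and 87, -0.47), Gm17586 (74 and 50, -0.38), Gm5113 (212 and 150, -0.31), Gm15408 (53 and 41, -0.18) and C030037D09Rik (55 and 46, -0.07), with log2 ratios after the reads. The intervals of 5930430L01Rik, 4632404H12Rik and Gm5113 excluded 1, and none passed the 2-fold rule. Among genes of any type past the read minimum and matched by symbol, 51.5% of the 988 with a clock E-box and 50.6% of the 8447 without one had a log2 ratio below 0, with medians of -0.01 and -0.00, so the signs of these 6 members are read as no result about the motif. No binding was measured in this series, so a match is a description of the letters only. The promoters of 5930430L01Rik (chr5:148995165-148995464, minus strand) and 4632404H12Rik (chr3:89773351-89773650, minus strand) are shown because each holds the clock E-box at 2 places, in capitals.
5930430L01Rik: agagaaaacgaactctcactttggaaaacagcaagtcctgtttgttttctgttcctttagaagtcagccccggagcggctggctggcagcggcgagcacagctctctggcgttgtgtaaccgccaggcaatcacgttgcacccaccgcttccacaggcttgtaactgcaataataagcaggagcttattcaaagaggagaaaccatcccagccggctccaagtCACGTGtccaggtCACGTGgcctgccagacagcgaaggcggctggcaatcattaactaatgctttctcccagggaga
4632404H12Rik: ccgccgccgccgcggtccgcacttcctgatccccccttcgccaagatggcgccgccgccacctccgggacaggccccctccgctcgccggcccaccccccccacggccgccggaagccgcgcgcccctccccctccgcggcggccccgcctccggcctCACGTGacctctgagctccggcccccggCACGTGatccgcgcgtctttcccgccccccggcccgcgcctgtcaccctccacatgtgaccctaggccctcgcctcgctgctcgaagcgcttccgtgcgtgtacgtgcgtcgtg
The promoter of the called member 2610035D17Rik held none of the 3 motifs.

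In structure the members were shorter than the protein-coding genes of this muscle and close to the antisense genes. Their median exon length was 2402 bases, beside 4538 for all genes past the minimum, and ranged from 326 to 20771, the latter being Neat1. The median of the largest exon number per transcript was 3, beside 9, and 21 members had a single exon. Protein-coding genes had medians of 4647 bases and 9 exons, antisense genes 2541 and 3, and processed transcript genes 3192 and 5. The members lay on 20 chromosomes, with 2 on X and 0 on Y. Exon bases were shared with another annotated gene by 43 members (35.5%, beside 37.5% of all genes), 17 of them on the same strand and 33 on the opposite strand, and the strand setting of the counting is not given in the sources used here. Near-identical copies were found for 5 members: 2900097C17Rik and Gm7292, which match each other, Gm27000 and Meg3, Gm10076, a copy of Rpl41 (144 and 132 reads, log2 ratio 0.06), and Gm20186, a copy of Gm12840 (28 and 23 reads, -0.10).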

How the data were processed

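Raw read counts per Ensembl gene were deposited by the authors in 1 table for both libraries, with a separate FPKM file for each, per the file headers. The input was total RNA and the library kit came from Vazyme, per the labels' protocols. The submitters' processing notes name the build GRCm38 and the tools HISAT2 2.0.4, StringTie 1.3.0 and CASAVA. The counter, annotation release and strand setting are not given in the sources used here. In 16284 genes with reads in both libraries, deposited FPKM and counts implied the same gene length within 0.1 percent for 100%. That length differed from the M21 exon length by over 1.5 times in 24 members.

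Of the 34745 gene identifiers, 34344 matched GENCODE M21 and 401 did not. Counts were scaled by TMM (edgeR 4.0.16, R 4.3.3; factors 0.993 and 1.01) to CPM, and log2 ratios were taken after 0.5 reads were added. The 95% intervals are exact Clopper-Pearson intervals of the share of a gene's reads in Cry2scko. For 0 reads the upper limit, set at 3 reads, was 0.160 CPM (Cry2flox) or 0.181 CPM (Cry2scko). With 1 library per genotype no test and no p-value was possible. The calculation was tested on simulated data. Copies were sought with BLAST 2.17.0 (at least 95 percent identity over at least 50 percent of the transcript). Python 3.11.15, numpy 2.4.6, scipy 1.17.1 and pandas 2.3.3 were used, with matplotlib 3.10.9 for figures.

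Named members were the 12 with the most reads, those past the 2-fold rule, those with a symbol that is not a model name, and those at the read minimum. Others, including those past 1.5-fold, the microRNA hosts, the members with an E-box and the neighbour pairs, were named after their values were seen. The members and gene lists were chosen with earlier results of these data known. Both count columns entered every comparison.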

Additional observations from a re-analysis of the deposited data

How the results depend on the processing

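The number of members called higher in Cry2scko was 3. It was 5 with total-count scaling, 6 with total counts without mitochondrial genes and the 20 most abundant genes, 1 with 5 reads added, 0 with deposited FPKM plus 0.1, 12 at a fold threshold of 1.5, 6 with a minimum of 10 reads and 0 with a minimum of 50, which removes all 3 by construction. Lower calls were 0, but 6 at 1.5-fold and 1 with a minimum of 10 reads. DESeq2 1.42.0 size factors, and leaving out members that share exon bases, kept the same 3. With 20 reads in either library in place of both, chosen after seeing the data, 10 were higher and 2 lower. With H19, Meg3 and Mirg kept, also chosen then, the counts were 3 and 0. The number of members was 70 with a minimum of 50 reads and 78 without shared exon bases. The median log2 ratio ranged from -0.07 to 0.02. For 53 named members under 5 alternatives, 265 of 265 values lay inside the counting interval. The changes of scaling move every ratio by the same small amount: 0.020 (total count), -0.008 (DESeq2) and 0.029 (without the most abundant genes). That outcome was therefore nearly fixed in advance. A reversal of sign was looked for only in the 3 called members, and 0 reversed. No paired analysis was possible because there is 1 library per genotype, and for the same reason no library could be left out. Depth limits most values, since the median member has 74 and 65 reads.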
